A study of Mus musculus with 18 samples.

Results

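The Rab GTPases of cultured mouse Leydig cells were read from the RNA of 18 libraries. Members were all genes of the table whose symbol is Rab followed by a number and at most 1 letter from a to d, which gave 59 of 55487 genes, and 51 of the 59 had enough counts to be tested. Leydig cells are the testosterone-producing cells between the seminiferous tubules of the testis, and these were primary cells labelled as Leydig cells, with 3 libraries in each of 6 groups. The groups siprdx1+H2O2+FV and siNC+H2O2+FV had H2O2 at 200 µM for 30 min and then fluvastatin (FV), a statin, at 5 µM for 6 h. The groups siprdx1+H2O2 and siNC+H2O2 had the same H2O2 and then 0.1% DMSO for those 6 h, and the groups siprdx1 and siNC had DMSO without H2O2. All cells were transfected, with an siRNA against Prdx1 (siprdx1) or a control siRNA (siNC). Prdx1 encodes peroxiredoxin 1, an enzyme that breaks down H2O2, and the study asked how fluvastatin acts on Leydig cells through it. The labels list no DMSO where fluvastatin was given, so the vehicle also differs, and fluvastatin was only given to cells that had seen H2O2. The labels call the replicates biological without naming animals, so p-values measure the spread between these cultures, whatever its source.

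Rab proteins are small GTPases that mark membranes. Each sits on certain compartments, is switched on by an exchange factor and off by a GTPase-activating protein, and in its active form recruits effectors such as tethers and motor proteins. Rabs hold to membranes by geranylgeranyl lipids made in the mevalonate pathway, which statins block, so that statins can leave Rab proteins without their lipid anchor. The libraries measured mRNA, and neither the lipid nor the membrane position of any Rab protein was read.

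Library totals ran from 15201530 to 23898435 counts. Levels are given as CPM (the rate of counts per library after TMM scaling) or, between genes, as TPM (a rate that also divides by exon length), and differences as log2 fold changes with their SE. Prdx1 had 426 to 576 CPM in the 9 siprdx1 libraries and 1279 to 1690 CPM in the 9 siNC libraries. Of 8 Leydig markers 6 were expressed enough to be tested, with Cyp11a1 at a mean of 712 CPM and Star at 286 CPM, while the Leydig markers Cyp17a1 and Hsd17b3 were near 0 at 0.0318 and 0.0670 CPM. All 12 macrophage markers and all 6 fibroblast markers were tested too, at summed levels of 7843 to 9941 CPM and 15019.8 to 19619.8 CPM, so the cultures held RNA of other cell types. In such bulk samples fewer cells of a type and less RNA per cell cannot be told apart. The replicate pair farthest apart was siprdx1+H2O2 replicates 1 and 2. The squared differences of their counts were 16.1 times the variance that counting error alone would give. Fluvastatin results are given without each of these 2 libraries below.

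Rab7, which takes late endosomes to lysosomes, led with a mean of 552 TPM over the 18 libraries (SD 16.4). It had 564, 536 and 557 TPM in siprdx1+H2O2+FV, 583, 542 and 558 TPM in siprdx1+H2O2, 573, 544 and 572 TPM in siprdx1, 560.1, 543 and 543 TPM in siNC+H2O2+FV, 569, 537 and 537 TPM in siNC+H2O2 and 559.5, 524 and 536 TPM in siNC. On the TPM scale the 6 groups overlapped. In TMM-scaled CPM Rab7 had 462, 435 and 447 CPM in siprdx1+H2O2+FV, 429, 409 and 415 CPM in siprdx1+H2O2 and 405, 388 and 405 CPM in siprdx1, which do not overlap, though neither step passed the test, and the siNC groups overlapped. Rab2a, of transport between endoplasmic reticulum and Golgi, followed at 385 TPM (SD 23.5). Its lowest library, at 358 TPM, was in a fluvastatin group, and its highest, at 454 TPM, was siprdx1+H2O2 replicate 1. Rab5c, of early endosome fusion, had 340.1 TPM (SD 22.4) and ranged from 300.5 to 375 TPM, a range that overlaps with that of Rab2a. Next came Rab1a of the endoplasmic reticulum to Golgi step at 307 TPM (SD 13.1) and Rab31 of the route from trans-Golgi to endosomes at 270.0 TPM (SD 22.4), whose ranges over the libraries also met. In all 12 members averaged over 100 TPM and 15 of the 51 tested averaged under 10 TPM.

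The low end held several Rabs best known from specialised cells. Rab27a and Rab27b, of secretory granules, averaged 2.75 and 2.06 TPM, and Rab15 was the lowest tested member at 0.646 TPM. The 8 members that were not tested were Rab38 of melanosomes, Rab25 and Rab17 of epithelia, Rab44 of granules in blood cells, Rab26, Rab37 and Rab3c of secretory granules, and Rab9b. Each had at most 78 counts over all 18 libraries together, and Rab17 had 0. The members with the largest SE of the fluvastatin change in siprdx1 cells were all of low count, from Rab42 (SE 0.51, 235 counts in all) and Rab39b (SE 0.36, 433 counts) to Rab15 (SE 0.33, 323 counts).

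**Figure D1:**
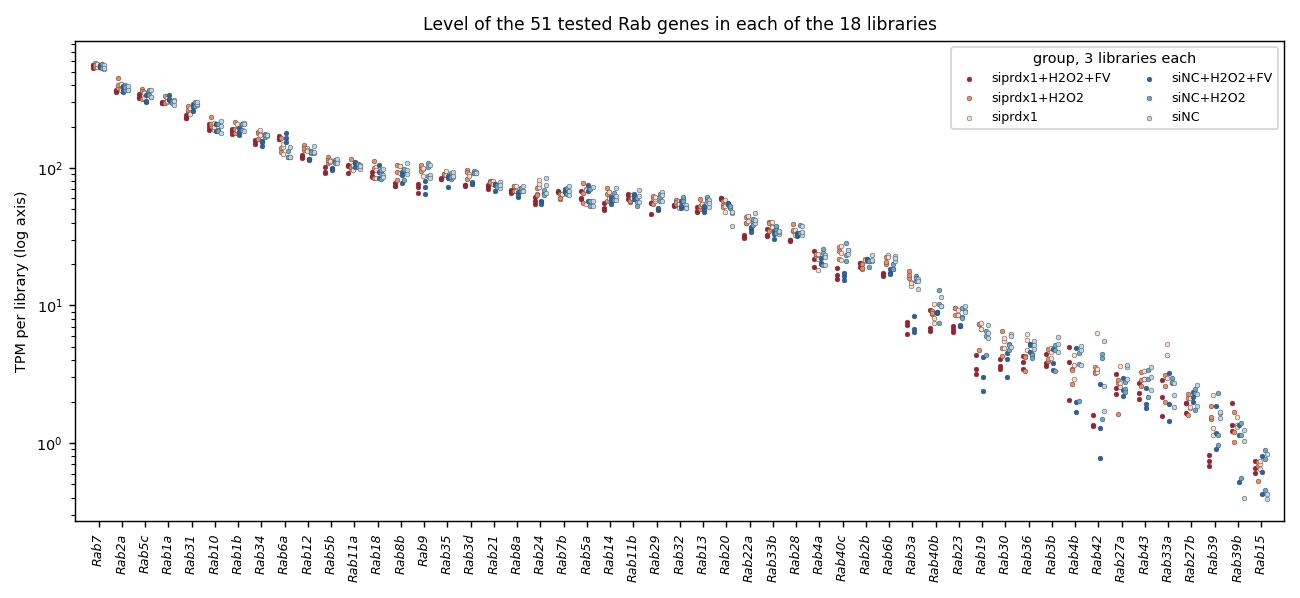
Level of the 51 tested Rab genes in TPM (log axis), sorted by mean level, with 1 point per library coloured by group (3 libraries each). The genes span from Rab7 at a mean of 552 TPM to Rab15 at 0.646 TPM, and among the 5 most abundant members the widest range over the 18 libraries is that of Rab2a, 358 to 454 TPM.

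With fluvastatin after H2O2, 13 of the 51 tested Rab genes passed the test in siprdx1 cells and 7 in siNC cells. These were the highest counts of the comparisons made, and the shares of all tested genes, 23.6% and 24.9%, were also the highest. In both siRNA arms Rab3a, a Rab of secretory vesicles, fell to 45.2% (siprdx1) and 47.9% (siNC) of its level without the statin, and Rab6a, which drives transport within and out of the Golgi, rose to 124% and 140.0%. Rab9 of the late endosome, Rab40c, Rab3d and Rab19 fell in both arms by smaller amounts. The abundant Rab7, Rab2a and Rab5c had log2 fold changes between -0.11 and 0.10 and did not pass.

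In siprdx1 cells 4 of the 51 tested members rose and 9 fell with fluvastatin, against 12.6% and 11% of all 16432 tested genes (edgeR quasi-likelihood test, Benjamini-Hochberg adjusted p below 0.05). In siNC cells 2 rose and 5 fell, against 13.5% and 11.3% of all tested genes. As shares, 25.5% of the members passed in siprdx1 cells against 23.6% of all genes, and 13.7% in siNC cells against 24.9%. The median log2 fold change of the members was -0.03 in siprdx1 cells and -0.07 in siNC cells, beside -0.01 for all genes in each arm. The median size of the change regardless of sign was 0.12 for the members and 0.17 for all genes in siprdx1 cells, and 0.12 and 0.18 in siNC cells. With counts scaled by library size alone the split was 2 higher and 18 lower in siprdx1 cells, against 1463 and 3634 of all 16432 genes. In siNC cells it was 1 higher and 17 lower, against 1474 and 3835 of all genes. That scaling moved the median of all genes to -0.11 in each arm. The directions here are therefore relative to the median gene. In siprdx1 cells 6 members were higher in every fluvastatin library than in every library with H2O2 alone and 11 were lower, against 17.7% and 17.7% of all genes, and in siNC cells 8 were higher and 14 lower, against 19.9% and 19% of all genes.

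By the compartment of the protein, the calls were spread over most routes. Of all tested genes 12.6% rose and 11% fell in siprdx1 cells, and 13.5% rose and 11.3% fell in siNC cells. The groups are small, from 2 to 15 tested genes, and were not tested against these shares. Some of the calls were lost without a single library, as given below. Of the 5 tested Rabs of regulated secretion 2 fell in each arm. Of the 15 of the endoplasmic reticulum and Golgi 1 rose and 2 fell in siprdx1 cells, and 2 rose and 1 fell in siNC cells. Of the 12 tested Rabs of recycling and the plasma membrane 1 rose in siprdx1 cells and 0 passed in siNC cells. Of the 7 tested early endosome members 1 rose and 1 fell in siprdx1 cells and 0 passed in siNC cells. Of the 5 tested of late endosomes and lysosomes 1 rose and 1 fell in siprdx1 cells and 1 fell in siNC cells. Of the 5 of the cilium and other functions 3 fell in siprdx1 cells and 1 in siNC cells, and the 2 tested Rabs of lysosome-related organelles, Rab29 and Rab32, passed in neither arm.

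**Figure D2:**
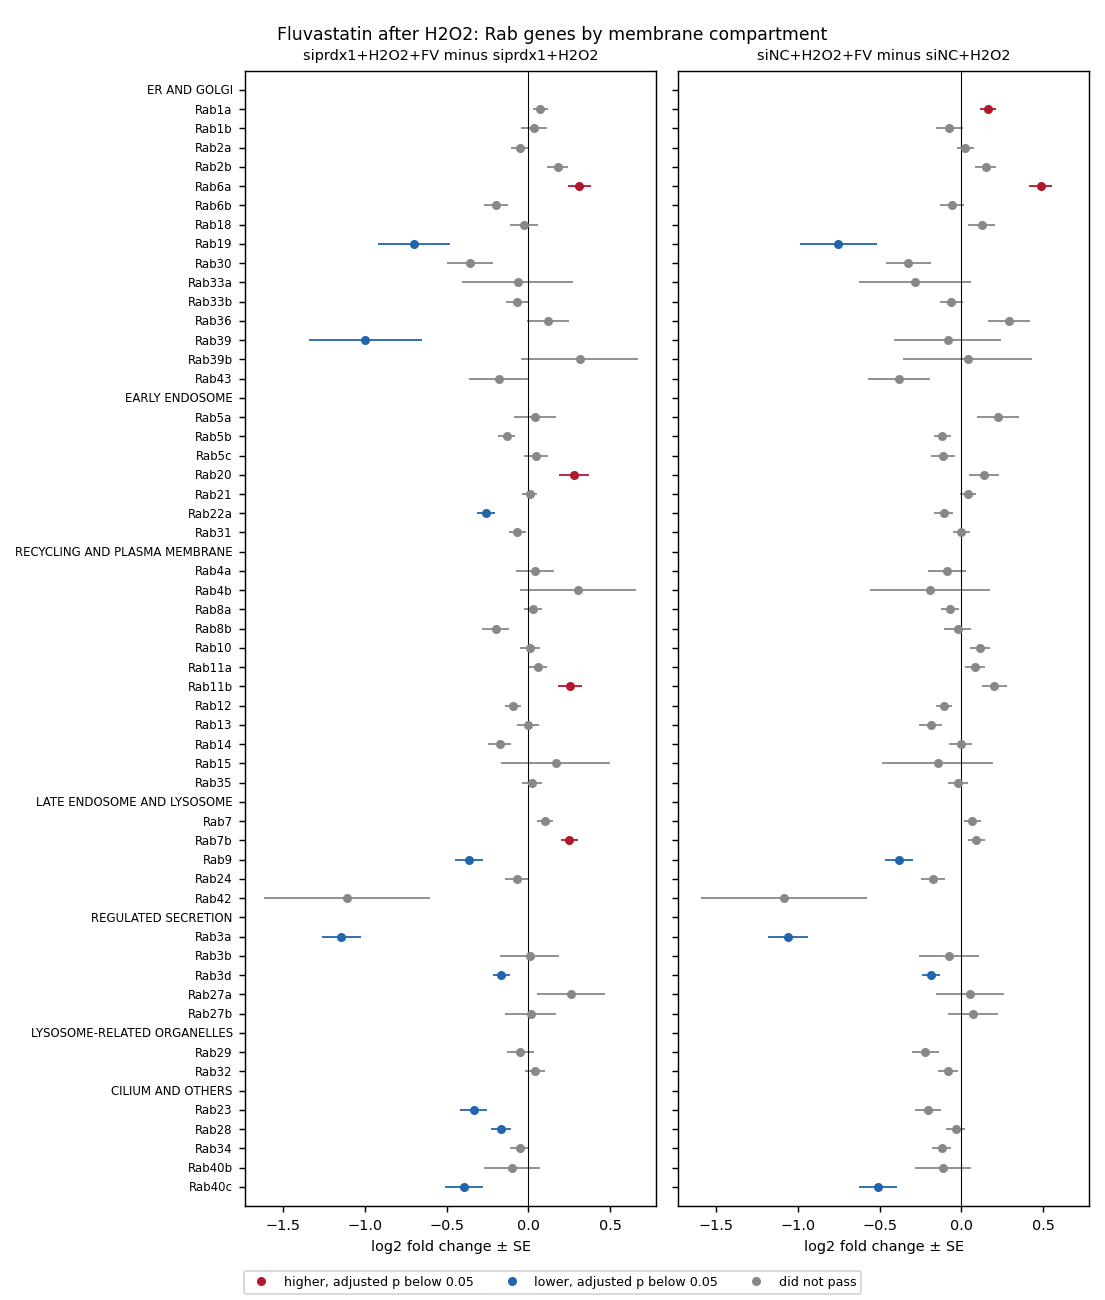
Log2 fold change (± SE) of each tested Rab gene with fluvastatin after H2O2, in siprdx1 cells on the left and siNC cells on the right, grouped by the compartment on which the protein acts. Coloured points passed the test, red above 0 and blue below, and Rab3a stands farthest from 0 among them at -1.15 and -1.06.

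The regulated secretion group held the largest change that passed. Rab3a (ENSMUSG00000031840, GRCm38 chromosome 8, 70754679 to 70758677, plus strand) encodes the Rab of synaptic and endocrine secretory vesicles. It had 5.05, 4.27 and 5.23 CPM in siprdx1+H2O2+FV, against 9.93, 10.7 and 11.4 CPM in siprdx1+H2O2. It had 4.32, 5.66 and 4.63 CPM in siNC+H2O2+FV, against 9.84, 10.4 and 10.3 CPM in siNC+H2O2. In both arms every library with fluvastatin lay below every library without it, and also below the libraries that had seen no H2O2, which had 8.27, 8.97 and 8.75 CPM in siprdx1 and 9.81, 7.91 and 9.28 CPM in siNC. The log2 fold change was -1.15 ± 0.12 in siprdx1 cells (edgeR adjusted p = 9.86e-08) and -1.06 ± 0.12 in siNC cells (edgeR adjusted p = 4.43e-07), which leaves 45.2% and 47.9% of the level. Its counts ran from 77 to 279 per library. Mpv17l2, a gene whose span overlaps that of Rab3a on the other strand, had 0.06 ± 0.11 in siprdx1 cells and -0.13 ± 0.11 in siNC cells and did not pass.

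The other secretory members moved less. Rab3d, the Rab3 of exocrine and other secretory granules, had 99.2, 98.1 and 94.7 CPM in siprdx1+H2O2+FV, against 98.9, 116 and 112 CPM in siprdx1+H2O2. These overlap through siprdx1+H2O2 replicate 1. In siNC cells it had 97.6, 101 and 98.9 CPM with fluvastatin, against 113, 113 and 113 CPM with H2O2 alone, with no overlap. The log2 fold change was -0.16 ± 0.05 in siprdx1 cells (edgeR adjusted p = 0.0298) and -0.19 ± 0.05 in siNC cells (edgeR adjusted p = 0.0138). The siprdx1 call was lost without any of siprdx1+H2O2+FV replicates 1, 2 and 3 (adjusted p = 0.0524, 0.0708 and 0.117) or siprdx1+H2O2 replicates 2 and 3 (0.163 and 0.114). It was stronger without siprdx1+H2O2 replicate 1, at -0.23 (adjusted p = 0.00181), and the siNC call was lost without siNC+H2O2+FV replicate 1 (adjusted p = 0.0530). In siprdx1 cells the call was also lost without a filter on low counts (adjusted p = 0.102) and with only the groups compared in the fit (0.142). Rab3b, Rab27a and Rab27b passed in neither arm.

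The ratio within the Rab3a and Rab3d pair was also read in each library. The log2 ratio of Rab3a to Rab3d CPM was -4.30, -4.52 and -4.18 in siprdx1+H2O2+FV, against -3.32, -3.44 and -3.30 in siprdx1+H2O2. It was -4.50, -4.15 and -4.42 in siNC+H2O2+FV, against -3.52, -3.44 and -3.45 in siNC+H2O2. A ratio within a library needs no scaling between libraries, and it was lower in every fluvastatin library.

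Among the Golgi members, Rab6a (ENSMUSG00000030704, chromosome 7, 100607410 to 100641268, plus strand) rose. It had 189, 187 and 196 CPM in siprdx1+H2O2+FV, against 173, 141 and 147 CPM in siprdx1+H2O2. It had 201, 186 and 178 CPM in siNC+H2O2+FV, against 131, 141 and 132 CPM in siNC+H2O2. In CPM all 6 fluvastatin libraries were above all others, including those without H2O2, which had 143, 129 and 151 CPM in siprdx1 and 127, 141 and 125 CPM in siNC. The log2 fold change was 0.31 ± 0.07 in siprdx1 cells (edgeR adjusted p = 0.00224) and 0.49 ± 0.07 in siNC cells (edgeR adjusted p = 2.11e-05). In TPM the siprdx1 groups met, at 162, 161 and 171 TPM in siprdx1+H2O2+FV, against 164, 131 and 139 TPM in siprdx1+H2O2. Without siprdx1+H2O2 replicate 1, the highest of its group, the siprdx1 change was 0.41, and without replicate 2 it was 0.25, and both passed.

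Rab6b, the close relative of Rab6a, did not pass, with -0.20 ± 0.07 in siprdx1 cells (edgeR adjusted p = 0.0513) and -0.05 ± 0.07 in siNC cells (edgeR adjusted p = 0.644). The log2 ratio of Rab6a to Rab6b was 2.87, 2.81 and 2.88 in siprdx1+H2O2+FV, against 2.60, 2.12 and 2.31 in siprdx1+H2O2. In siNC cells it was 2.94, 2.84 and 2.64 with fluvastatin, against 2.26, 2.41 and 2.15 without. The ratio was higher in every fluvastatin library than in every library with H2O2 alone. Exons of Mrpl48 overlap 708 bp of the 3728 bp of Rab6a exons on the other strand, and whether the counting used strand is not recorded. Mrpl48 had 0.12 ± 0.07 in siprdx1 cells and 0.13 ± 0.07 in siNC cells and did not pass. Gm13082, 95.3% identical to Rab6a over 557 bp, had 130 counts in all against 58372 of Rab6a.

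Rab19, a little-studied Golgi Rab of low level here, fell in both arms. It had 2.16, 1.56 and 1.68 CPM in siprdx1+H2O2+FV, against 2.09, 3.36 and 3.30 CPM in siprdx1+H2O2. It had 2.02, 1.13 and 1.47 CPM in siNC+H2O2+FV, against 2.02, 2.91 and 2.76 CPM in siNC+H2O2. In siprdx1 cells the groups overlapped, and in siNC cells the highest fluvastatin library lay just under the lowest library without it. The log2 fold change was -0.70 ± 0.22 in siprdx1 cells (edgeR adjusted p = 0.0238) and -0.75 ± 0.23 in siNC cells (edgeR adjusted p = 0.0209), from 23 to 81 counts per library. The siprdx1 call was lost without siprdx1+H2O2+FV or siprdx1+H2O2 replicates 2 or 3 (adjusted p from 0.0758 to 0.115) and with only the groups compared (0.0614), and the siNC call without siNC+H2O2+FV or siNC+H2O2 replicates 2 or 3 (adjusted p from 0.0589 to 0.125).

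A further Golgi pair passed in 1 arm each. Rab1a had 354, 359 and 346 CPM in siprdx1+H2O2+FV, against 354, 331 and 321 CPM in siprdx1+H2O2, which overlap. It had 391, 359 and 370 CPM in siNC+H2O2+FV, against 337, 331 and 331 CPM in siNC+H2O2, with no overlap. The siNC change of 0.16 ± 0.05 passed (edgeR adjusted p = 0.0135) and was lost without siNC+H2O2+FV replicate 1 (adjusted p = 0.0799), with library size alone (0.06, adjusted p = 0.347) and with GC and length offsets, without or with the replicate block (0.11 each, adjusted p = 0.0960 and 0.159). In siprdx1 cells Rab1a had 0.07 ± 0.05 (edgeR adjusted p = 0.307) and, scaled by library size, -0.029.

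Rab39, of Golgi and endosomes, had 0.631, 0.688 and 0.747 CPM in siprdx1+H2O2+FV, against 1.55, 1.29 and 1.30 CPM in siprdx1+H2O2. The siprdx1 libraries did not overlap, and the change of -1.0 ± 0.35 passed (edgeR adjusted p = 0.0389). In siNC cells it had 1.06, 1.67 and 0.826 CPM with fluvastatin, against 0.843, 1.96 and 0.992 CPM without, which overlap. With 12 to 37 counts per library, the siprdx1 call was lost without any 1 of the 6 libraries compared (adjusted p from 0.0567 to 0.122). The siNC value of -0.08 ± 0.33 turned positive without siNC+H2O2+FV replicate 3 (0.14) and without siNC+H2O2 replicate 2 (0.36).

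In the late endosome and lysosome group, Rab9 (ENSMUSG00000079316, chromosome X, 166457253 to 166479867, minus strand), which returns receptors of lysosomal enzymes to the Golgi, fell in both arms. It had 36.2, 39.5 and 41.0 CPM in siprdx1+H2O2+FV, against 49.3, 48.2 and 52.3 CPM in siprdx1+H2O2. It had 38.1, 42.4 and 35.2 CPM in siNC+H2O2+FV, against 52.4, 54.1 and 44.7 CPM in siNC+H2O2. The groups did not overlap in either arm. In siprdx1 cells the fluvastatin libraries were also below the 46.6, 41.8 and 47.8 CPM of siprdx1, and in siNC cells they overlapped with the 43.8, 49.1 and 41.3 CPM of siNC. On the log2 scale Rab9 changed by -0.36 ± 0.08 in siprdx1 cells (edgeR adjusted p = 0.00256) and -0.38 ± 0.09 in siNC cells (edgeR adjusted p = 0.00169).

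Rab7b, which acts between late endosomes and the Golgi, went the other way. It had 98.7, 96.3 and 95.4 CPM in siprdx1+H2O2+FV, against 77.7, 80.7 and 85.5 CPM in siprdx1+H2O2. It had 94.3, 97.4 and 95.9 CPM in siNC+H2O2+FV, against 87.5, 93.7 and 88.6 CPM in siNC+H2O2. Neither arm overlapped, but the distance was wider in siprdx1 cells, where the change of 0.25 ± 0.05 passed (edgeR adjusted p = 0.000845), whereas siNC cells had 0.09 ± 0.05 (edgeR adjusted p = 0.217) and, scaled by library size, -0.011. Rab7 and the autophagy-linked Rab24 passed in neither arm. Exons of Prelid1 overlap 1258 bp of the 2015 bp of Rab24 exons on the other strand, and Prelid1, with 63170 counts against 14517 of Rab24, fell in siNC cells (-0.25 ± 0.08, edgeR adjusted p = 0.0266), so the value of Rab24 is uncertain. Rab42 had the lowest siNC value of any member, -1.09 ± 0.51, and -1.11 ± 0.51 in siprdx1 cells, and passed in neither (edgeR adjusted p = 0.128 in each).

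**Figure D3:**
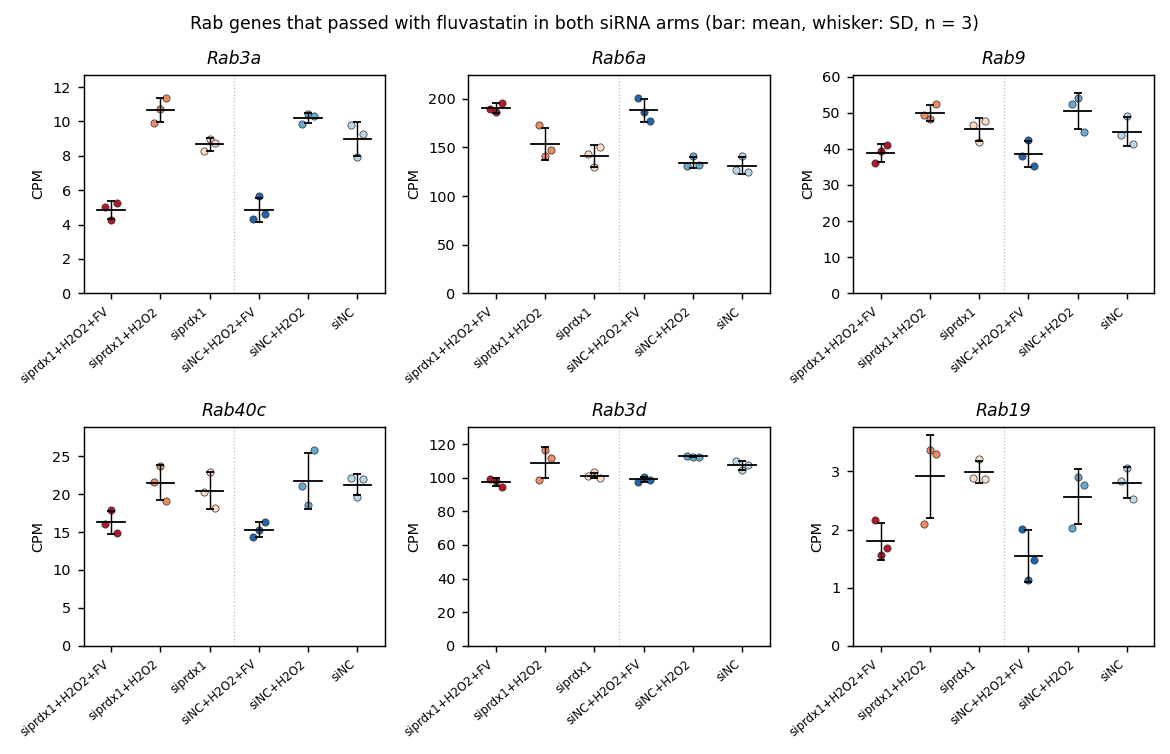
CPM per library (points), group mean (bar) and SD (whisker), n = 3, for the 6 Rab genes that passed with fluvastatin in both siRNA arms, siprdx1 groups left of the dotted line and siNC groups right of it. Rab6a is higher in the fluvastatin groups, Rab3a, Rab9 and Rab40c are lower without overlap with the H2O2 groups, and Rab3d and Rab19 overlap in siprdx1 cells.

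The upstream sequences of Rab3a, Rab6a and Rab9 are shown because their calls held in both arms under every setting tried and without any single library. Each is the 250 bases before a RefSeq transcript start on GRCm38.p6, read 5′ to 3′ on the strand of the gene. The windows are chr8:70754453-70754702 (plus) for the first of the 2 starts of Rab3a, chr7:100607336-100607585 (plus) for Rab6a and chrX:166479868-166480117 (minus) for Rab9. Capitals mark matches, on either strand, to a GC box (GGGCGG) or a CCAAT box (CCAAT).
Rab3a: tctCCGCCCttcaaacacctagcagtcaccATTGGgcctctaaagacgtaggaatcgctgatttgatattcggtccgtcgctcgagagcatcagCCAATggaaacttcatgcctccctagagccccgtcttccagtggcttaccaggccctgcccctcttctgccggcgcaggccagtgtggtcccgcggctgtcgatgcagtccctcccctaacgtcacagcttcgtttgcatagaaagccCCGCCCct
Rab6a: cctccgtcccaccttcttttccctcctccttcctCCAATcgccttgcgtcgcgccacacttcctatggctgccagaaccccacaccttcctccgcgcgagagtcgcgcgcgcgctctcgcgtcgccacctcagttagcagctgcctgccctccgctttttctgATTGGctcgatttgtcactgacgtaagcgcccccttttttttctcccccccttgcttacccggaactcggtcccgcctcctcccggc
Rab9: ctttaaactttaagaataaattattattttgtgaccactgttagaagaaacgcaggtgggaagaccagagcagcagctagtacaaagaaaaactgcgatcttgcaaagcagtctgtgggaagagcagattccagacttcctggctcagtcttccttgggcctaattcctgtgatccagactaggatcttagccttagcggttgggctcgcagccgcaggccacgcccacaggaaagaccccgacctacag
The Rab3a window held 2 GC boxes and 2 CCAAT boxes, the Rab6a window 2 CCAAT boxes, and the Rab9 window neither. The window of the second Rab3a start, chr8:70754852-70755101, which is not shown, also held neither. In all 48 of the 59 members matched a RefSeq promoter, with 60 windows among 32851. A GC box stood in 66.7% of the Rab windows and 32.7% of all windows, and a CCAAT box in 40% and 33.8%. Of the 6 members that passed in both arms, 3 had a GC box (Rab3a, Rab3d and Rab40c) and 3 a CCAAT box (Rab3a, Rab40c and Rab6a). These are counts of genes with a match in any of their windows, whereas the percentages are of windows. The E-box CACGTG (6.02% of all windows), the AP-1 motif TGANTCA (6.75%), the CRE TGACGTCA (1.55%), the antioxidant response core TGACNNNGC (10.2%), which can overlap the CRE and the AP-1 motif, the TEAD motif GGAATG (12.6%) and the ETS motif CCGGAAG (6.91%) were in none of these 6. A match describes letters only, and a missing match says nothing of a factor outside the window.

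Rab40c, which belongs to the Rabs with a SOCS box that join ubiquitin ligases, fell in both arms. It had 16.1, 17.9 and 14.9 CPM in siprdx1+H2O2+FV, against 21.5, 23.8 and 19.1 CPM in siprdx1+H2O2. It had 14.4, 15.2 and 16.4 CPM in siNC+H2O2+FV, against 21.0, 18.6 and 25.8 CPM in siNC+H2O2. No library overlapped between the groups of an arm. On the log2 scale the change was -0.39 ± 0.11 in siprdx1 cells (edgeR adjusted p = 0.0141) and -0.51 ± 0.12 in siNC cells (edgeR adjusted p = 0.00208). The siprdx1 call was lost without siprdx1+H2O2+FV replicates 1 or 3 (adjusted p = 0.0508 and 0.0723) or siprdx1+H2O2 replicate 2 (0.0770). Its relative Rab40b passed in neither arm. Unlike for Rab3a and Rab6a, the log2 ratio to the relative overlapped between the groups: Rab40c to Rab40b had 1.46, 2.15 and 1.81 in siprdx1+H2O2+FV, against 2.13, 2.17 and 1.93 in siprdx1+H2O2, and 1.44, 1.48 and 1.56 in siNC+H2O2+FV, against 1.79, 1.34 and 2.55 in siNC+H2O2.

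The remaining calls came in siprdx1 cells, with siNC values that did not pass in the fit of all 18 libraries. Rab22a of early endosomes had 73.0, 70.4 and 68.6 CPM in siprdx1+H2O2+FV, against 88.7, 83.3 and 82.2 CPM in siprdx1+H2O2, a change of -0.26 ± 0.06 (edgeR adjusted p = 0.00139). In siNC cells it had 78.9, 80.9 and 76.0 CPM with fluvastatin, against 85.5, 87.4 and 81.5 CPM without. Neither arm overlapped, and the siNC value of -0.11 ± 0.06 did not pass (edgeR adjusted p = 0.179), though it did with library size alone (-0.21) and with GC and length offsets (-0.22).

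Rab23, a negative regulator of Hedgehog signalling at the cilium, had 18.4, 16.4 and 17.1 CPM in siprdx1+H2O2+FV, against 22.2, 20.6 and 22.7 CPM in siprdx1+H2O2. In siNC cells it had 17.8, 17.8 and 18.6 CPM with fluvastatin, against 20.0, 22.7 and 19.9 CPM without. All fluvastatin libraries were lower in both arms, with log2 fold changes of -0.33 ± 0.08 in siprdx1 cells (edgeR adjusted p = 0.00326) and -0.21 ± 0.08 in siNC cells, short of the threshold (edgeR adjusted p = 0.0694). Scaling by library size (-0.31) or GC and length offsets (-0.26) brought the siNC value past it. Rab28, another Rab of the cilium, had 41.9, 42.4 and 41.4 CPM in siprdx1+H2O2+FV, against 49.8, 45.6 and 45.7 CPM in siprdx1+H2O2. Its change of -0.17 ± 0.06 lay just under the threshold (edgeR adjusted p = 0.05 when rounded), and leaving out any 1 of the 6 libraries ended the call (adjusted p from 0.0520 to 0.219), as did RLE size factors, no filter, the replicate block, only the groups compared and DESeq2 (0.0555 to 0.195). In siNC cells Rab28 had 45.7, 44.0 and 45.4 CPM with fluvastatin, against 44.8, 49.2 and 44.6 CPM without, which overlap, and its value of -0.04 ± 0.06 was 0.016 without siNC+H2O2 replicate 2.

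Rab11b and Rab20 rose in siprdx1 cells. Rab11b of slow recycling had 125, 114 and 119.7 CPM in siprdx1+H2O2+FV, against 101, 99.3 and 101 CPM in siprdx1+H2O2. It had 119.6, 111 and 118 CPM in siNC+H2O2+FV, against 108, 91.9 and 102 CPM in siNC+H2O2. The groups did not overlap in either arm. The change was 0.25 ± 0.07 in siprdx1 cells (edgeR adjusted p = 0.0149), lost without siprdx1+H2O2+FV replicate 1 (adjusted p = 0.0769), and 0.20 ± 0.07 in siNC cells (edgeR adjusted p = 0.0518). In siprdx1 cells the call was also lost with library size alone (0.15, adjusted p = 0.115). The siNC value lay at the threshold: it passed with RLE size factors (adjusted p = 0.0454), no filter (0.0244), the replicate block (0.0122), only the groups compared (0.0248) and DESeq2 (0.0413), and without siNC+H2O2 replicate 1 (0.0315). Rab11b shares 99.8% identity over 654 bp with the pseudogene Rab11b-ps2, which had 3825 counts against 40356 of Rab11b, so its values are uncertain.

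Rab20, of phagosome and endosome maturation, had 26.5, 26.2 and 25.3 CPM in siprdx1+H2O2+FV, against 20.9, 22.9 and 20.5 CPM in siprdx1+H2O2. It had 22.9, 23.3 and 23.4 CPM in siNC+H2O2+FV, against 21.3, 20.2 and 21.8 CPM in siNC+H2O2. The groups did not overlap in either arm, and the change was 0.28 ± 0.09 in siprdx1 cells (edgeR adjusted p = 0.0279) and 0.14 ± 0.09 in siNC cells, which did not pass (edgeR adjusted p = 0.309). The siprdx1 call was lost without siprdx1+H2O2+FV replicates 1 or 2 or siprdx1+H2O2 replicates 1 or 3 (adjusted p from 0.0639 to 0.113) and with library size alone (0.141), and the siNC value passed with GC and length offsets (0.26, adjusted p = 0.00873). The noncoding gene E230013L22Rik overlaps 356 bp of the 1392 bp of Rab20 exons on the other strand, so without a recorded strand setting this value is uncertain.

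The 2 arms share no library, so their values can be set side by side. Of the 51 members 39 had the same sign in both, and across genes, which are not independent replicates, Pearson's r was 0.797 and Spearman's rank correlation 0.662. For H2O2 alone 44 of the 51 had the same sign, with Pearson's r at 0.156 and Spearman's rank correlation at 0.319. Neither agreement was read over all genes. The 6 members that passed with fluvastatin in both arms were 46.2% of the 13 siprdx1 calls and 85.7% of the 7 siNC calls. Calls shared between the arms were not counted over all genes, so this sharing is not read as particular to the Rabs. The difference between the arms was tested as an interaction, and 0 of 51 members passed by edgeR, limma voom or DESeq2, beside 0.651% of all genes (0.463% higher, 0.189% lower) in edgeR. At an unadjusted edgeR p below 0.05 there was 1, Rab7b, with an interaction of 0.16 ± 0.07 (edgeR adjusted p = 0.366). A call in siprdx1 cells alone is thus not shown to differ from siNC cells. With 1 library left out the siprdx1 count that fell was 5, 4 and 5 without siprdx1+H2O2+FV replicate 2, siprdx1+H2O2+FV replicate 3 or siprdx1+H2O2 replicate 3, and the count that rose was 2 without siprdx1+H2O2+FV replicate 1. Without siprdx1+H2O2 replicate 1 the counts were 3 higher and 8 lower, and without replicate 2 they were 5 higher and 8 lower. In siNC cells the count that rose was 1 without siNC+H2O2+FV replicate 1.

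Other features moved with fluvastatin beside these genes. The 5 smooth muscle markers summed to 1854 to 2093 CPM in siprdx1+H2O2+FV, against 1024 to 1153 CPM in siprdx1+H2O2, and to 2178 to 2319.98 CPM in siNC+H2O2+FV, against 1234 to 1321 CPM in siNC+H2O2, and 4 of 5 rose in each arm. The Leydig markers summed to 1334 to 1345 CPM with fluvastatin, against 986 to 1047 CPM without, in siprdx1 cells, and to 1445 to 1497 CPM, against 1165 to 1184 CPM, in siNC cells, where 2 of 6 rose and 1 fell in siprdx1 cells and 1 rose and 2 fell in siNC cells, with Star at 1.40 ± 0.05 and 1.34 ± 0.05. The 12 macrophage markers summed to 8498 to 8906 CPM, against 8152 to 8385 CPM, in siprdx1 cells, where 2 rose and 0 fell. In siNC cells they summed to 8156 to 8275 CPM, against 9273 to 9941 CPM, and 1 rose and 6 fell. The 6 fibroblast markers summed to 15798 to 16454 CPM, against 17269 to 18535 CPM, in siprdx1 cells, where 2 fell, and to 18251 to 18956 CPM, against 18924 to 19619.8 CPM, in siNC cells, where 1 fell. The 4 Sertoli markers summed to 85.4 to 94.2 CPM, against 78.9 to 86.0 CPM, in siprdx1 cells, where 2 rose and 2 fell, and to 78.3 to 83.5 CPM, against 64.9 to 68.3 CPM, in siNC cells, where 1 rose and 1 fell. The 4 endothelium markers summed to 75.7 to 77.3 CPM, against 82.2 to 94.5 CPM, in siprdx1 cells, where 1 fell, and to 90.7 to 92.2 CPM, against 93.7 to 95.2 CPM, in siNC cells, where 0 of 4 passed by edgeR. The part of these cell type markers in the Rab values was not tested. Across the 51 members the log2 fold change and the transcript GC content had r = -0.0812 in siprdx1 cells and -0.414 in siNC cells, beside -0.0154 and -0.132 over the 16410 tested genes with a GC value. With the log2 exon length r was 0.197 in siprdx1 cells and 0.434 in siNC cells, which was not read over all genes.

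H2O2 alone, read after the 6 h in DMSO, moved few Rab mRNAs past the test. In siprdx1 cells 1 of 51 members passed, Rab36, a Golgi Rab that fell, and in siNC cells 1 of 51 passed, Rab32, which rose and is known from melanosomes and related organelles. The background was 7.87% of all tested genes in siprdx1 cells (2.48% higher, 5.39% lower) and 6.95% in siNC cells (2.36% higher, 4.59% lower). The median log2 fold change of the members was 0.07 in siprdx1 cells and 0.05 in siNC cells, beside 0.02 and 0.01 for all genes. In siprdx1 cells 13 members were higher in every H2O2 library than in every library without it and 1 was lower, against 10.5% and 12.1% of all genes, and in siNC cells 12 were higher and 2 lower, against 12.5% and 14.4%.

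Rab32 had 38.7, 36.8 and 37.8 CPM in siprdx1+H2O2, against 36.4, 32.8 and 34.9 CPM in siprdx1. It had 41.2, 40.7 and 39.7 CPM in siNC+H2O2, against 35.5, 32.0 and 33.2 CPM in siNC. The H2O2 libraries were higher in both arms, by 0.12 ± 0.06 in siprdx1 cells, which did not pass (edgeR adjusted p = 0.271), and by 0.27 ± 0.06 in siNC cells (edgeR adjusted p = 0.00801). Without siNC replicate 2 the siNC value was 0.24 and did not pass (adjusted p = 0.0529). The 12 macrophage markers, of which 0 passed in siprdx1 cells and 2 rose in siNC cells (Cd14 and Lyz2), summed to 8152 to 8385 CPM in siprdx1+H2O2, against 7843 to 8077 CPM in siprdx1, and to 9273 to 9941 CPM in siNC+H2O2, against 8049 to 8914 CPM in siNC, and their part in the value of Rab32 was not tested.

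Rab36 had 7.48, 7.52 and 5.82 CPM in siprdx1+H2O2, against 9.41, 10.5 and 8.0 CPM in siprdx1. It had 8.04, 7.61 and 7.51 CPM in siNC+H2O2, against 9.76, 8.47 and 8.27 CPM in siNC. It was lower in all libraries with H2O2 alone of each arm, with log2 fold changes of -0.44 ± 0.13 in siprdx1 cells (edgeR adjusted p = 0.0350) and -0.19 ± 0.13 in siNC cells, which did not pass (edgeR adjusted p = 0.402). The siprdx1 call was lost without siprdx1+H2O2 replicate 3 (adjusted p = 0.204) and without siprdx1 replicates 1 or 2 (0.09 and 0.186), and with only the groups compared (0.125). The interaction of H2O2 with knockdown passed for 0 of 51 members by edgeR, limma voom and DESeq2, with 1 (Rab33a) at an unadjusted p below 0.05 in edgeR, beside 0.243% of all genes (0.0426% higher, 0.201% lower).

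With knockdown of Prdx1 a single Rab mRNA passed the test. Rab31, which brings cargo from the trans-Golgi to endosomes and is the fifth most abundant member, was lower in siprdx1 cells under each treatment. Without H2O2 0 of 51 members rose and 1 fell, against 0.657% and 1.67% of all genes (2.33% in either direction). After H2O2 0 of 51 passed (edgeR, with 4 at an unadjusted p below 0.05, and 0 by limma voom and DESeq2), against 0.901% higher and 1.83% lower (2.73% in either direction). After H2O2 and fluvastatin 0 rose and 1 fell, against 1.62% and 2.35% (3.97% in either direction). Averaged over the 3 treatments 0 rose and 1 fell, again Rab31, against 3.93% and 5.46% (9.38% in either direction). Members whose siprdx1 libraries all lay above, or all below, the siNC libraries numbered 3 and 4 without H2O2, against 7.09% and 8.19% of all genes. They numbered 3 and 3 after H2O2, against 8.03% and 9.13%, and 3 and 6 after H2O2 and fluvastatin, against 10.8% and 11.5%.

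Rab31 (ENSMUSG00000056515, chromosome 17, 65651729 to 65772752, minus strand) had 283, 263 and 256 CPM in siprdx1, against 311, 297 and 318 CPM in siNC. After H2O2 it had 302, 284 and 288 CPM in siprdx1+H2O2, against 321, 327 and 316 CPM in siNC+H2O2. After H2O2 and fluvastatin it had 277, 273 and 284 CPM in siprdx1+H2O2+FV, against 338, 319 and 307 CPM in siNC+H2O2+FV. Within every treatment each siprdx1 library was below each siNC library. The log2 fold change was -0.21 ± 0.05 without H2O2 (edgeR adjusted p = 0.0277), -0.14 ± 0.05 after H2O2, which did not pass (edgeR adjusted p = 0.172), and -0.21 ± 0.05 after H2O2 and fluvastatin (edgeR adjusted p = 0.0189). The average was -0.18 ± 0.03 (edgeR adjusted p = 0.000129) and kept its call without any single library.

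The calls within a treatment rested on single libraries. Without H2O2 the call of Rab31 was lost without siNC replicates 1 or 3 (adjusted p = 0.0857 and 0.166) or siprdx1 replicates 2 or 3 (0.0889 and 0.187), with library size alone (0.0847) and with only the groups compared (0.156). After H2O2 it passed with GC and length offsets (-0.14, adjusted p = 0.0116). After H2O2 and fluvastatin it was lost without siNC+H2O2+FV replicates 1 or 2 (0.125 and 0.0642) or siprdx1+H2O2+FV replicates 1 or 2 (0.0771 and 0.0936). The 6 fibroblast markers summed to 15019.8 to 15772 CPM in siprdx1, against 17819.9 to 18849 CPM in siNC, and in the averaged knockdown 2 rose and 3 fell, with the collagen gene Col3a1 at -0.33 ± 0.03. Their part in the value of Rab31 was not tested.

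**Figure D4:**
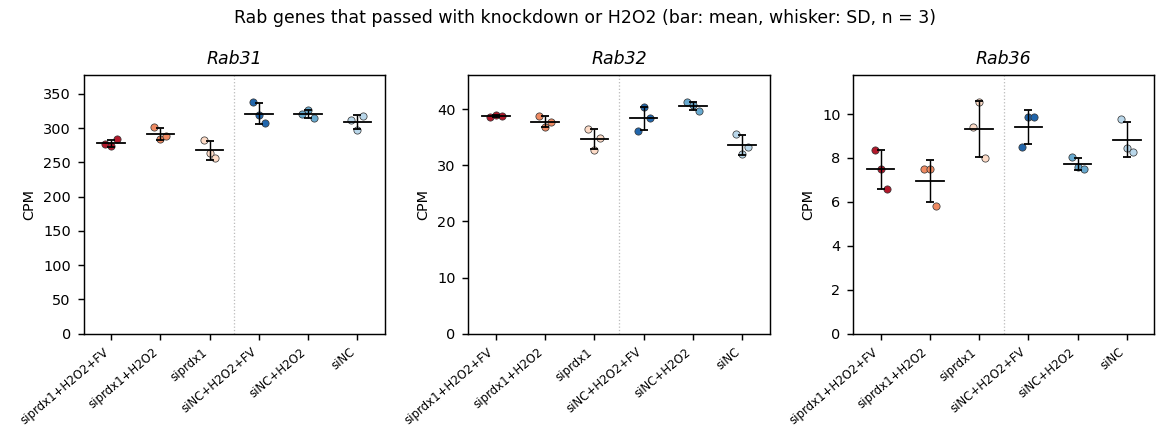
CPM per library (points), group mean (bar) and SD (whisker), n = 3, for the Rab genes that passed with Prdx1 knockdown (Rab31) or with H2O2 (Rab32, Rab36), siprdx1 groups left of the dotted line. Every siprdx1 library of Rab31 is below the siNC libraries of the same treatment. Within each arm Rab32 is higher and Rab36 lower with H2O2 alone than without H2O2. With fluvastatin after H2O2, Rab36 overlaps with the group without H2O2 in both arms.

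The proteins that switch Rabs on and off, and those that active Rabs recruit, were read with fluvastatin from lists of regulators. Of 40 tested exchange factors 6 rose and 4 fell with fluvastatin in siprdx1 cells (25% passed, against 23.6% of all tested genes), and 8 rose and 4 fell in siNC cells (30% against 24.9%), shares near the background. Rabgef1, the exchange factor of Rab5, rose by 1.10 ± 0.06 and 1.04 ± 0.06 in siprdx1 and siNC cells (edgeR adjusted p = 4.51e-12 and 1.75e-11), while the Rab5 genes themselves did not pass. Rab3il1, named for its binding to Rab3 and an exchange factor of Rab8, fell by 0.39 ± 0.07 and 0.65 ± 0.07 (edgeR adjusted p = 0.000205 and 2.56e-07). Rin1, another exchange factor of Rab5, rose by 0.58 ± 0.09 and 0.38 ± 0.09.

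Of 37 GTPase-activating proteins 1 rose and 5 fell in siprdx1 cells (16.2%), and 3 rose and 5 fell in siNC cells (21.6%), both shares under those of all genes. Tbc1d10a rose by 0.68 ± 0.07 and 0.60 ± 0.07, and its relative Tbc1d10b fell by 0.32 ± 0.07 and 0.46 ± 0.07. Of 51 tested effectors 5 rose and 8 fell in siprdx1 cells (25.5%, against 23.6% of all genes), and 12 rose and 6 fell in siNC cells (35.3%, against 24.9%). Micall1, an effector on recycling tubules, rose by 1.39 ± 0.07 and 1.27 ± 0.07 (edgeR adjusted p = 9.19e-14 and 6.62e-13), Ehbp1l1, an effector of Rab8, rose by 0.51 ± 0.07 and 0.41 ± 0.07, and Gorasp1, a Golgi stacking protein, fell by 0.39 ± 0.09 and 0.49 ± 0.09. Tbc1d10a, Rabgef1 and Micall1 thus changed by more than any Rab mRNA that rose.

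The mRNAs of other families of small GTPases were read beside those of the Rabs. Most Ras proteins also carry isoprenoid lipids, whereas Arf proteins mostly carry another lipid. Of 29 tested Ras GTPases 48.3% passed in each arm, and of 27 tested Arf GTPases 37% passed in siprdx1 cells and 25.9% in siNC cells. The Rabs stood at 25.5% and 13.7%, and all tested genes at 23.6% and 24.9%. The largest change among the Rabs that passed was -1.15, whereas Arl4d of the Arf family rose by 2.24 ± 0.08 in siprdx1 cells and 2.13 ± 0.09 in siNC cells. Log2 fold changes beyond 1 in size, passing or not, were seen in 2 of 51 Rabs and 2 of 27 Arf genes in each arm. Among 29 Ras genes there was 1 in siprdx1 cells and 0 in siNC cells. The 2 Rabs were Rab3a and Rab42, and Rab42 passed in neither arm. Over all tested genes the share beyond 1 in size was 5.53% in siprdx1 cells and 4.87% in siNC cells, and for the Rabs it was 3.92% in each. These counts are descriptions of unequal lists, and the difference between families was not tested. Of 6 tested Rab-like genes 0 passed in either arm.

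**Figure D5:**
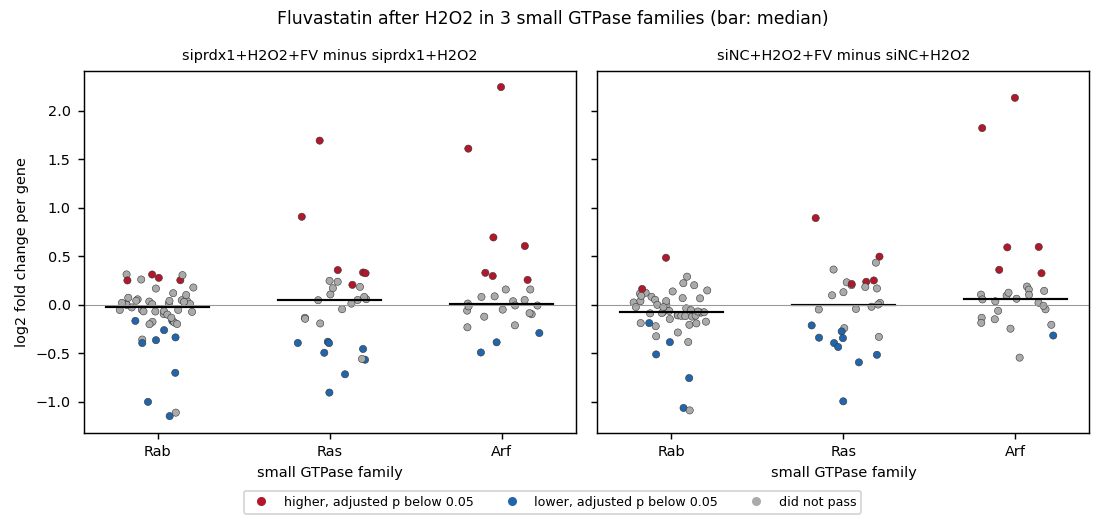
Log2 fold change of each tested gene with fluvastatin after H2O2 in 3 families of small GTPases (Rab 51, Ras 29 and Arf 27 genes), siprdx1 cells on the left and siNC cells on the right, with the median as a bar. The Rab points stay between -1.15 and 0.49, whereas the highest Arf gene, Arl4d, is at 2.24 and 2.13.

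The share of all counts that fell on the 59 Rab genes was 0.401% to 0.410% in siprdx1+H2O2+FV, against 0.426% to 0.449% in siprdx1+H2O2, and 0.399% to 0.416% in siNC+H2O2+FV, against 0.424% to 0.436% in siNC+H2O2. After TMM scaling the sums were 4214 to 4277 CPM, against 4171 to 4416 CPM, in siprdx1 cells and 4244 to 4405 CPM, against 4194 to 4276 CPM, in siNC cells, which overlap. In TPM the sums were 4056 to 4122, against 4337 to 4592, in siprdx1 cells and 4075 to 4250, against 4274 to 4445, in siNC cells. These TPM sums did not overlap and were lower with fluvastatin, as were the shares of all counts. Whether the summed Rab mRNA was lower with fluvastatin therefore depends on the scaling.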

How the data were processed

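Per the labels' protocols, poly(A) RNA of 18 samples was sequenced with a stranded kit. The values are unnormalised whole-number counts for each gene, as deposited. The submitters' processing notes name HISAT2, HTSeq and mm10 without versions, and the annotation and strand setting are not given in the sources used here. Groups came from the column names and labels. Totals were 15201530 to 23898435 counts. The common biological coefficient of variation, estimated from the spread between replicates within groups, was 7.01%.

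Tests used edgeR 4.0.16 in R 4.3.3 (TMM, filterByExpr, robust quasi-likelihood fit of 6 group means, 12 residual degrees of freedom) on all 16432 genes that passed the filter, with Benjamini-Hochberg adjustment within each of 10 contrasts and a threshold of 0.05. The Rab members and gene lists were chosen with earlier results of these data known. Values in every library are given for members that passed in a contrast and for the most abundant. Coordinates, exon lengths for TPM and GC content came from GENCODE M21 (GRCm38), which held 55227 of the IDs, and near-identical transcripts from blastn 2.17.0+ (90% identity over 300 bp or more).

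Alternatives were RLE size factors, library size alone, no filter, a replicate block, only the groups compared, limma 3.58.1 voom, DESeq2 1.42.0, GC and length offsets (alone or together with the block), and omission of each library in turn. Same-numbered libraries correlated above 0.1 in every pair only for H2O2 in siNC cells (0.135, 0.135 and 0.118). That pairing comes from this check and not from the labels, and the block changed no Rab call there (Rab32 0.27, adjusted p = 0.00937). For fluvastatin in siNC cells the correlations were 0.102, 0.0576 and 0.158, each the highest for its fluvastatin library, so a pairing there is not excluded. The fits were tested on simulated data. Squared differences between replicates were 2.64 to 16.1 times the variance of counting noise, so none was a copy. Some genes of the lists are not reported here.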

Additional observations from a re-analysis of the deposited data

How the results depend on the processing

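Rab3a, Rab6a and Rab9 kept direction and call with fluvastatin in both arms under all 9 alternatives and all 6 omissions of a library per arm. Counts of members that passed moved as follows. Library size alone gave 2 higher and 18 lower for fluvastatin in siprdx1 cells, against 1463 and 3634 of all 16432 genes. In siNC cells it gave 1 higher and 17 lower, against 1474 and 3835. For knockdown without H2O2 it gave 0 lower, against 199 of all genes. With fluvastatin it turned Rab7b in siNC cells to -0.011 and Rab1a in siprdx1 cells to -0.029. GC and length offsets gave 14 lower (16 with the replicate block) for fluvastatin in siprdx1 cells, 4 higher and 10 lower (4 and 12) in siNC cells, 6 (7) higher for H2O2 in siprdx1 cells, 2 (2) higher for H2O2 in siNC cells, 1 higher and 2 lower (1 and 2) for knockdown after H2O2, 2 lower for knockdown after H2O2 and fluvastatin (with the replicate block only), and 2 higher and 3 lower (2 and 4) for the averaged knockdown. Among the alternatives, calls over all genes were counted only for library size alone. The Rab counts under the offsets and the other alternatives thus have no background beside them, and are not read as particular to the Rabs. The cause was not tested. No filter gave 4 higher for fluvastatin in siNC cells, fits to only the groups compared gave 0 lower for H2O2 in siprdx1 cells and for knockdown without H2O2, and DESeq2 gave 2 higher for H2O2 in siNC cells.

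With 1 library left out the counts for fluvastatin ranged over 2 to 5 higher and 4 to 8 lower in siprdx1 cells and 1 to 3 higher and 4 to 5 lower in siNC cells. For H2O2 they ranged over 0 to 1 higher and 0 to 1 lower in siprdx1 cells and 0 to 2 higher in siNC cells. For knockdown they ranged over 0 to 1 lower under each treatment and 1 to 2 lower in the average. The reversals on omission were Rab39 in siNC cells (0.14 without siNC+H2O2+FV replicate 3 and 0.36 without siNC+H2O2 replicate 2, in a range of -0.42 to 0.36) and Rab28 in siNC cells (0.016 without siNC+H2O2 replicate 2, in a range of -0.061 to 0.016).

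The replicate block alone moved no count by over 1.5 times. In contrasts where not every same-numbered pair correlated above 0.1 it gave Rab11b in siNC cells with fluvastatin 0.20 (adjusted p = 0.0122) and Rab28 in siprdx1 cells -0.17 (adjusted p = 0.0562). The lowest correlation of a same-numbered pair with fluvastatin was 0.0576 in siNC cells and -0.0121 in siprdx1 cells. Members with few counts, such as Rab42, Rab39 and Rab19, carried wide errors, so a change in them of the size seen in Rab6a may not be detectable at this depth.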
